A study of Mus musculus with 6 samples.

Results

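Interferon-stimulated effector genes are a set of 40 mouse genes, listed by name, that cells switch on when interferon reaches them. They were followed in CD11b-positive microglia sorted from the lumbar spinal cord. Of the 40 genes, 38 had a probe set of their own among the 18193 genes measured. The annotation used here lists no probe set under Ifi44, and the probe set that carries the symbol Isg15 carries other symbols too, so neither gene is reported. The microglia came from 90 days old (P90) males on a B6SJL background. The SOD1 G93A group carried many copies of a human SOD1 transgene with the G93A mutation, the transgene of the strain B6SJL-Tg(SOD1-G93A)1Gur/J, a mouse model of amyotrophic lateral sclerosis (ALS). The WT group was control littermates without it. Each group was measured on 3 Affymetrix arrays, each from the RNA of several pooled mice after enzymatic dissociation, removal of myelin and sorting of live cells for CD11b, a surface protein of microglia that monocytes, neutrophils and some other leukocytes also carry. The transgene is known to be active in many cell types and not only in microglia, so the comparison is between microglia of 2 kinds of mice.

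Type I interferons are secreted proteins that bind a receptor present on nearly all cells. The receptor activates kinases of the JAK family, which phosphorylate STAT proteins, and these join IRF9 and bind a DNA element called the interferon-stimulated response element (ISRE) in front of their target genes. The targets encode sensors of viral RNA, enzymes that stop translation or degrade RNA, proteins that trap virus particles, and regulators that end the response. Interferon-gamma acts through a related route on the gamma-activated site (GAS). In the brain and spinal cord microglia are among the cells that respond to interferon.

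The promoters were examined because the list was drawn up by response to interferon, with earlier results of these data known, and not by sequence. RefSeq promoters of the mouse build GRCm38.p6, from 250 bases before to 50 after the start of transcription, were at hand for 27 of the 38 genes, with 33 starts in all. The ISRE was searched as the letters GAAA, any 2 bases and GAAA again, and the GAS as TTC, any 3 bases and GAA, each on both strands, and matches were allowed to overlap each other. The ISRE letters were in the promoters of 15 of the 27 genes (55.6%), against 3.99% of all 27025 genes with a promoter. By start of transcription the shares were 16 of 33 (48.5%) and 3.44%. The GAS letters were in 9 of the 27 genes (33.3%), against 9.55% of all genes. The letters are a description of the sequence and not a site shown to be bound.

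The stretches that follow hold the ISRE matches of 6 genes that were higher in SOD1 G93A microglia and of 2 genes, Oas3 and Irgm1, that did not pass the test, so that both kinds can be set side by side. Not printed are Gbp3, Igtp and Trim30a, which did not pass, and the genes whose matches lie only after the start. Each is printed 5′ to 3′ on the strand of the gene with the match and 20 bases on either side, or up to the start of transcription, and capitals mark the match. A match in the opposite orientation reads TTTC, any 2 bases and TTTC.
Ifit1 chr19:34640765-34640833 (+ strand): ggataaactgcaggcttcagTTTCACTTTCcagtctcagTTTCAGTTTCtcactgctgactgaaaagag
Ifit3 chr19:34583353-34583436 (+ strand): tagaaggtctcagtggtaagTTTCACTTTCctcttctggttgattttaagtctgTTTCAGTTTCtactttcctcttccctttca
Bst2 chr8:71537567-71537622 (- strand): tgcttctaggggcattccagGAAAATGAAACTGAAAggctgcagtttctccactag
Oas1a chr5:120907526-120907565 (- strand): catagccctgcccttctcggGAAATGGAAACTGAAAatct
Rsad2 chr12:26456543-26456592 (- strand): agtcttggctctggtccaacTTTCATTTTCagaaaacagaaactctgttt
Gbp2 chr3:142620584-142620633 (+ strand): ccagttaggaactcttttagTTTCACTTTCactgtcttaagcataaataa
Oas3 chr5:120777705-120777754 (- strand): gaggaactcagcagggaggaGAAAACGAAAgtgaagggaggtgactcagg
Irgm1 chr11:48871421-48871470 (- strand): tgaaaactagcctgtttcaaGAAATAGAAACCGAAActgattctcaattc
Ifit1 and Ifit3 held 2 separate matches each, both in the opposite orientation. The promoter of Ifit2, which also rose, held no ISRE match but a GAS match from base -241 to -233. In Bst2, Oas1a and Irgm1 a pair of matches overlapped in one run of repeated GAAA, while Rsad2, Gbp2 and Oas3 held a single match. The ISRE letters were in 7 of 12 genes that rose (58.3%) and in 8 of 15 that did not pass (53.3%), and this difference was not tested.

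**Figure D1:**
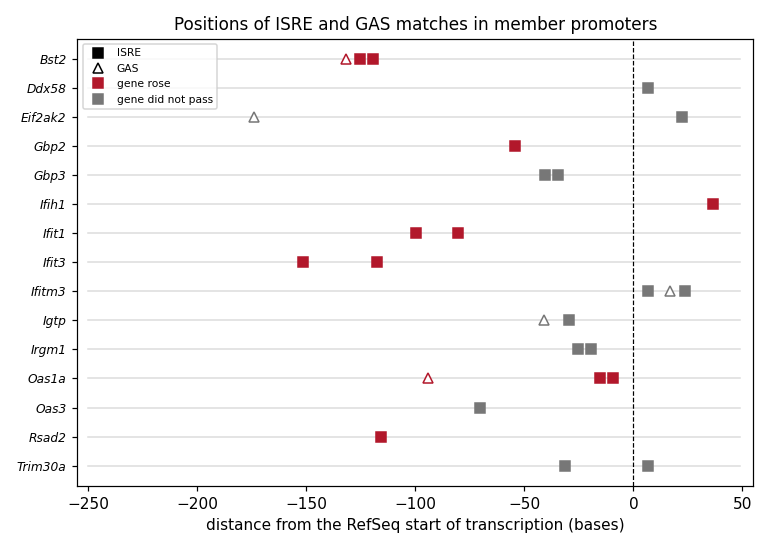
Positions of ISRE matches (filled squares) and GAS matches (open triangles) relative to the RefSeq start of transcription (dashed line), in bases, for the 15 members whose promoter held an ISRE match. Each grey line is 1 gene's window, red marks genes that rose in SOD1 G93A microglia and grey genes that did not pass. The red ISRE matches run from base -156 to 41, and among them only that of Ifih1 lies after the start. The grey ISRE matches run from base -75 to 28, on both sides of the start, and this difference was not tested.

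Many interferon-stimulated genes were higher in SOD1 G93A than in WT microglia, and none passed the test in the other direction. Of the 38 genes, 19 rose and 0 fell at a limma adjusted p under 0.05, and 19 did not pass, while over all genes 4.59% rose and 2.79% fell. Without adjustment, 24 members were higher at a p under 0.05 and 2 (Gbp3 and Ifitm3) were lower, against 13.1% and 9.21% of all genes. The 3 SOD1 G93A arrays all lay above the 3 WT arrays in 23 members and all below in 2, against 16.6% and 10.9% of all genes, and the groups overlapped in 13. The median log2 fold change of the members, SOD1 G93A minus WT, was 0.48 beside 0.02 for all genes, and 31 of 38 had a positive value. The members were chosen with earlier results of these data known, so these shares describe the list and are not a test of it. The arrays measured RNA of pooled cells, so more responding cells and more RNA per cell cannot be told apart. The p-values measure the spread between pools of mice.

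These counts depend on the test. The methods' t-test, which has unequal variance and borrows no spread from other genes, left 0 members after adjustment and called 20 higher and 2 lower at a p under 0.05 without adjustment, and with it 0% of all genes rose after adjustment. With the Gapdh 3' minus 5' difference of each array, a measure of RNA integrity, as a covariate in limma, 0 members rose after adjustment, and without adjustment 13 were higher and 4 were lower at a p under 0.05, while 0.396% of all genes rose. The number of rises was 7 without SOD1 G93A array 2 and 7 without array 3, and 10 without WT array 2 or WT array 3. The direction of all 19 rises was the same in every alternative that was run.

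**Figure D2:**
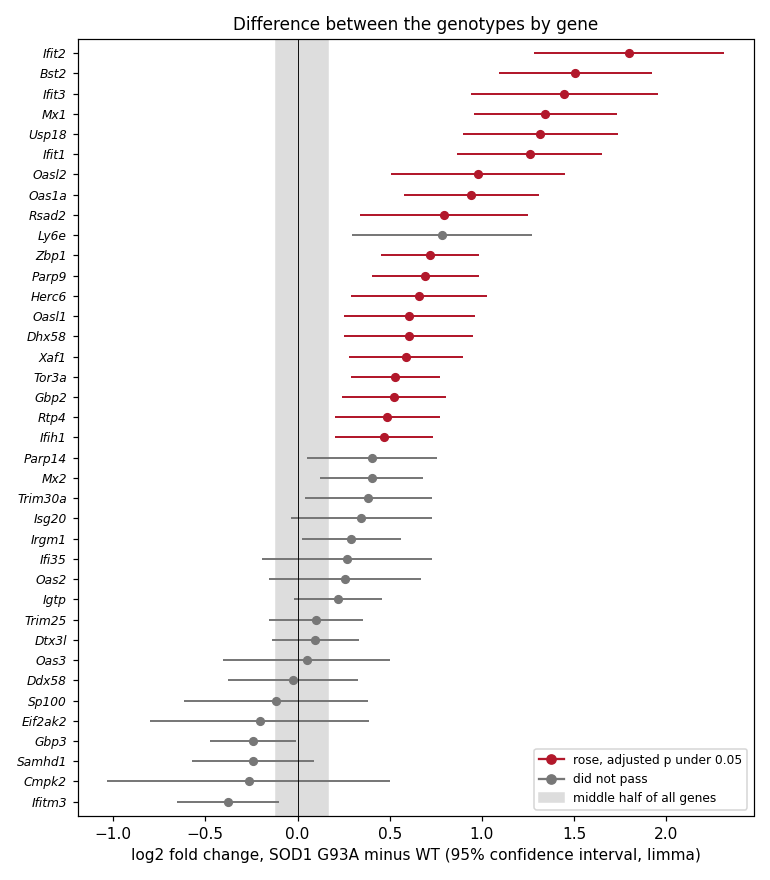
Log2 fold change of the 38 interferon-stimulated genes, SOD1 G93A minus WT, with the 95% confidence interval from limma, ordered by size. Red marks the 19 genes that rose at an adjusted p under 0.05, grey those that did not pass, and the grey band runs from the lower to the upper quartile of all genes. Ifit2, Bst2, Ifit3, Mx1, Usp18 and Ifit1 stand at the top and Ifitm3 at the bottom.

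The IFIT family had the highest median log2 fold change of the roles, 1.45, and its 3 members all rose, although Bst2 was above Ifit3 and Ifit1, and Mx1 and Usp18 were above Ifit1. IFIT proteins bind foreign RNA, above all RNA that lacks the cap modifications of the host, and keep it from being translated. Ifit2 had a log2 signal of 8.34, 9.35 and 9.09 in the SOD1 G93A arrays and 7.06, 7.21 and 7.13 in the WT arrays. The groups lay far apart, with the lowest SOD1 G93A array, array 1, more than 1 log2 unit above the highest WT array. Ifit2 rose by 1.80 on the log2 scale (standard error, SE, 0.23, adjusted p = 0.00304), a 3.47-fold difference. The 95% interval was 1.29 to 2.31 on the log2 scale, and the gene ranked 27 of 18193 by fold change. Ifit3 had 8.33, 9.0 and 9.32 in the SOD1 G93A arrays and 7.45, 7.57 and 7.29 in the WT arrays. The groups again did not overlap, and SOD1 G93A array 1 was the lowest of its group. Ifit3 rose by 1.45 (SE 0.22, adjusted p = 0.00754) on the log2 scale. The genome holds a near-identical copy of Ifit3, Ifit3b, and the probes may not tell them apart. Ifit1 had 7.22, 7.73 and 7.26 in the SOD1 G93A arrays and 5.87, 6.30 and 6.27 in the WT arrays. The highest value was in SOD1 G93A array 2 and the lowest in WT array 1. Ifit1 rose by 1.26 (SE 0.17, adjusted p = 0.00466) on the log2 scale. All 3 kept the call when any 1 array was left out. Ifit2 and Ifit3 are neighbours on chromosome 19, and 3 protein-coding genes lie between Ifit3 and Ifit1.

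Among membrane proteins Bst2 stood out. Bst2, or tetherin, holds budding virus particles at the cell surface. It had a log2 signal of 8.65, 9.15 and 9.17 in the SOD1 G93A arrays and 7.17, 7.66 and 7.62 in the WT arrays. SOD1 G93A array 1, the lowest of its group, was almost 1 log2 unit above the highest WT array, and WT array 1 was below the other WT arrays. Bst2 rose by 1.51 (SE 0.18, adjusted p = 0.0027) on the log2 scale, or 2.84-fold, rank 46 of all genes, and kept the call without any 1 array. Ly6e, a lipid-anchored surface protein that affects the entry of viruses, had 11.67, 12.03 and 12.22 in the SOD1 G93A arrays and 10.94, 11.67 and 10.96 in the WT arrays. The groups touched without overlapping, since WT array 2 reached the level of SOD1 G93A array 1. For Ly6e the log2 fold change was 0.78 (SE 0.21, adjusted p = 0.0604), above the threshold of 0.05 on all arrays, and it passed without WT array 2 (adjusted p = 0.0231) and without SOD1 G93A array 1 (adjusted p = 0.0431). A second, dimmer probe set of Ly6e had a log2 fold change of -0.19. Ifitm3 blocks the fusion of viruses in endosomes. Every SOD1 G93A array was below every WT array. Its log2 fold change of -0.38 (SE 0.12, adjusted p = 0.0979) was the lowest among the members and did not pass.

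**Figure D3:**
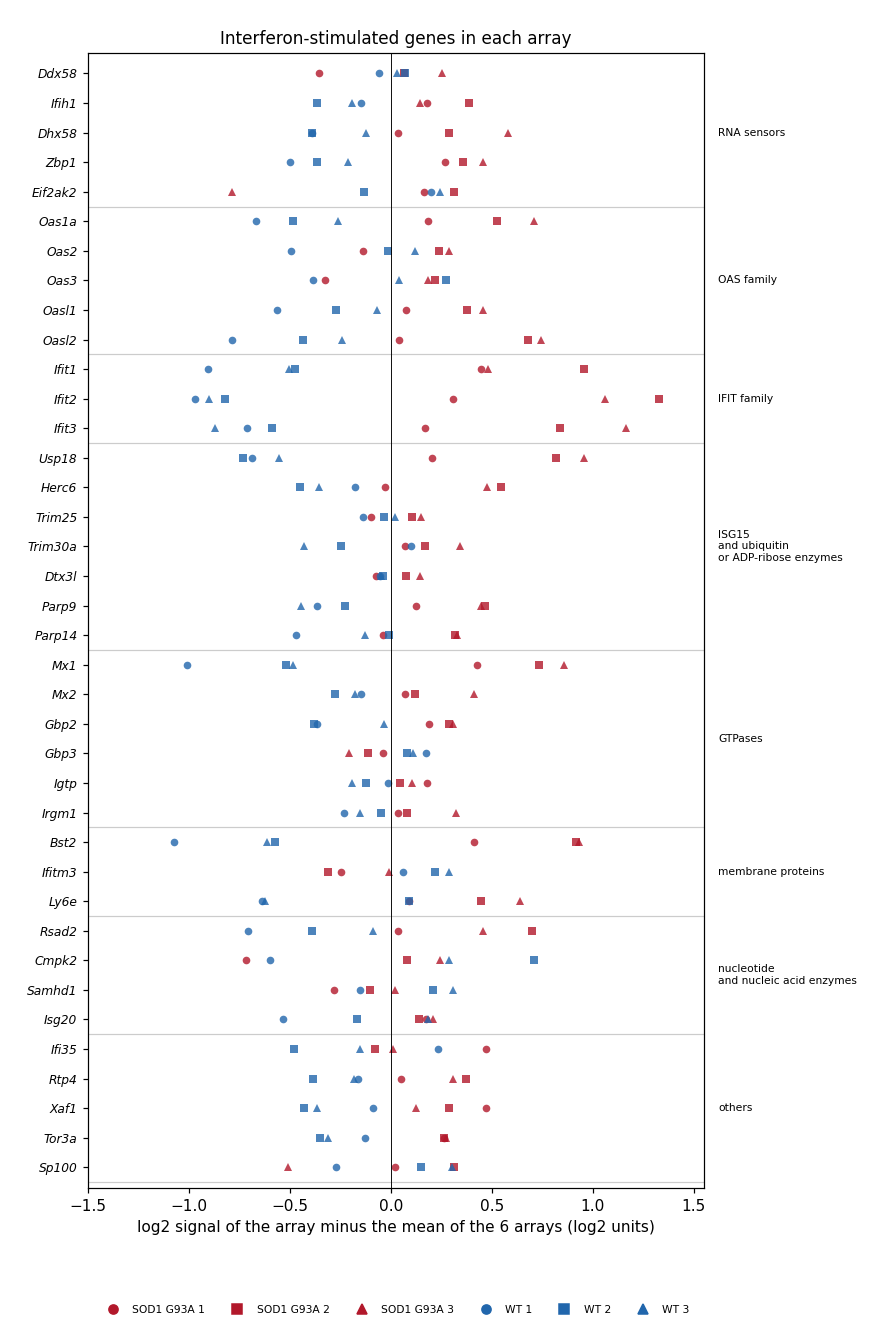
Log2 signal of each array for the 38 interferon-stimulated genes, drawn as the deviation from the gene's mean over the 6 arrays in log2 units and grouped by role. Red symbols are SOD1 G93A arrays and blue symbols WT arrays, with circles, squares and triangles for the replicate numbers 1, 2 and 3. The groups lie apart in 25 genes, with SOD1 G93A higher in 23 of them, and circles often lie to the left of the other symbols of their colour.

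The RNA sensors were split. DDX58 (RIG-I) and IFIH1 (MDA5) recognise viral RNA in the cytoplasm and DHX58 (LGP2) modulates them, ZBP1 senses nucleic acid in the Z conformation, and EIF2AK2 (PKR) halts translation when it binds double-stranded RNA. Zbp1, Dhx58 and Ifih1 rose. Zbp1 had a log2 signal of 6.94, 7.03 and 7.13 in the SOD1 G93A arrays and 6.17, 6.31 and 6.46 in the WT arrays. All SOD1 G93A arrays were within a narrow band above the WT arrays. Zbp1 rose by 0.72 (SE 0.11, adjusted p = 0.00853) on the log2 scale, and it passed without any 1 array. Dhx58 had 7.35, 7.60 and 7.90 in the SOD1 G93A arrays and 6.92, 6.92 and 7.19 in the WT arrays. WT arrays 1 and 2 shared a level and WT array 3 came closest to the SOD1 G93A arrays. Dhx58 rose by 0.60 (SE 0.15, adjusted p = 0.0476) on the log2 scale, and it did not pass without SOD1 G93A array 2 or 3 (adjusted p = 0.131 and 0.157, respectively) or WT array 1, 2 or 3 (adjusted p = 0.088, 0.138 and 0.0761, respectively). Ifih1 had 9.54, 9.75 and 9.50 in the SOD1 G93A arrays and 9.21, 8.996 and 9.17 in the WT arrays. The groups did not overlap, with SOD1 G93A array 2 the highest. Ifih1 rose by 0.47 (SE 0.12, adjusted p = 0.0417) on the log2 scale, and the call was lost without SOD1 G93A array 1, 2 or 3 (adjusted p = 0.0592, 0.139 and 0.0963, respectively) or WT array 2 or 3 (adjusted p = 0.134 and 0.105, respectively).

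Ddx58 and Eif2ak2 did not pass. Eif2ak2 had a log2 signal of 8.20, 8.35 and 7.26 in the SOD1 G93A arrays and 8.24, 7.91 and 8.28 in the WT arrays. SOD1 G93A array 3 was far below all other arrays, and the groups overlapped. For Eif2ak2 the log2 fold change was -0.21 (SE 0.26, adjusted p = 0.71), and it was 0.13 without SOD1 G93A array 3. Its other probe sets had log2 fold changes of 0.19 and 0.57, at mean log2 signals of 6.06 and 4.38 beside 8.04 for the brightest. The direction of Eif2ak2 thus depends on the probe set, and the value of 0.57 comes from a dim one, under 5. Ddx58 had a log2 fold change of -0.03 (SE 0.15, adjusted p = 0.947), and its 2 other probe sets, at 0.18 and -0.04, did not pass.

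In the OAS family 3 of 5 members rose. OAS enzymes make 2'-5'-linked oligoadenylates on double-stranded RNA, which activate RNase L, while the OAS-like protein Oasl1 lacks this activity. Oas1a had a log2 signal of 10.64, 10.98 and 11.17 in the SOD1 G93A arrays and 9.79, 9.97 and 10.19 in the WT arrays. The groups were separate and WT array 1 was the lowest. Oas1a rose by 0.94 (SE 0.16, adjusted p = 0.0107) on the log2 scale, and it narrowly lost the call without SOD1 G93A array 2 or 3 (adjusted p = 0.0525 and 0.0512, respectively). Oas1a has close paralogues in the mouse, and what share of its signal is theirs was not tested. Oasl2 had 7.43, 8.07 and 8.13 in the SOD1 G93A arrays and 6.60, 6.95 and 7.14 in the WT arrays. SOD1 G93A arrays 2 and 3 were high and SOD1 G93A array 1 was nearer to the WT arrays. Oasl2 rose by 0.98 (SE 0.21, adjusted p = 0.0244) on the log2 scale, and it did not pass without SOD1 G93A array 2 or 3 (adjusted p = 0.1 and 0.106, respectively) or WT array 2 (adjusted p = 0.0669). Oasl1 had 7.47, 7.77 and 7.85 in the SOD1 G93A arrays and 6.83, 7.12 and 7.32 in the WT arrays. The closest pair across the groups was SOD1 G93A array 1 and WT array 3. Oasl1 rose by 0.61 (SE 0.15, adjusted p = 0.0483) on the log2 scale, and the call was lost without SOD1 G93A array 2 or 3 (adjusted p = 0.151 and 0.173, respectively) or WT array 1, 2 or 3 (adjusted p = 0.0901, 0.114 and 0.0582, respectively). Oasl1 and Oasl2 are neighbours on chromosome 5.

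Oas2 had a log2 signal of 8.50, 8.88 and 8.93 in the SOD1 G93A arrays and 8.15, 8.63 and 8.76 in the WT arrays. The groups overlapped, since SOD1 G93A array 1 was below WT arrays 2 and 3. For Oas2 the log2 fold change was 0.26 (SE 0.18, adjusted p = 0.459). Oas3, next to Oas2 on chromosome 5, had a log2 fold change of 0.05 (SE 0.20, adjusted p = 0.919), the smallest in the family.

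Among the genes of ISG15 and of ubiquitin or ADP-ribose transfer 3 of 7 measured members rose. ISG15 is a ubiquitin-like protein that is joined to other proteins. Usp18 removes it and also blocks the interferon receptor, Herc6 is the main ligase for it in mice, and Parp9 and Dtx3l form a complex that modifies histones and ubiquitin. Usp18 had a log2 signal of 7.67, 8.28 and 8.42 in the SOD1 G93A arrays and 6.78, 6.74 and 6.91 in the WT arrays. The WT arrays lay close together, and SOD1 G93A array 1 was below the other SOD1 G93A arrays yet above all WT arrays. Usp18 rose by 1.32 (SE 0.18, adjusted p = 0.00504) on the log2 scale, or 2.49-fold, and it passed without any 1 array. Parp9 had 8.31, 8.66 and 8.64 in the SOD1 G93A arrays and 7.82, 7.96 and 7.74 in the WT arrays. The groups did not overlap. Parp9 rose by 0.69 (SE 0.13, adjusted p = 0.0143) on the log2 scale, and it did not pass without SOD1 G93A array 2 or 3 (adjusted p = 0.0652 and 0.0704, respectively) or WT array 3 (adjusted p = 0.0628). Herc6 had 7.84, 8.41 and 8.34 in the SOD1 G93A arrays and 7.69, 7.42 and 7.51 in the WT arrays. The margin between SOD1 G93A array 1 and WT array 1 was small. Herc6 rose by 0.66 (SE 0.16, adjusted p = 0.0417) on the log2 scale, and the call was lost without SOD1 G93A array 2 or 3 (adjusted p = 0.141 and 0.158, respectively) or WT array 2 or 3 (adjusted p = 0.127 and 0.125, respectively).

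Parp14, an ADP-ribosyltransferase, had a log2 signal of 8.99, 9.35 and 9.35 in the SOD1 G93A arrays and 8.56, 9.02 and 8.90 in the WT arrays. SOD1 G93A array 1 was just below WT array 2, so that the groups overlapped. For Parp14 the log2 fold change was 0.41 (SE 0.15, adjusted p = 0.155). Trim30a, a TRIM protein that restrains inflammatory signalling, had a log2 fold change of 0.38 (SE 0.15, adjusted p = 0.164), and it passed without WT array 1 (adjusted p = 0.0428). Trim25, a ubiquitin ligase that acts on RIG-I, had 0.10 (SE 0.11, adjusted p = 0.662). Dtx3l, the partner of Parp9, had 0.10 (SE 0.10, adjusted p = 0.651). Parp14, Dtx3l and Parp9 follow one another on chromosome 16 with no protein-coding gene between them, and only Parp9 of the 3 passed.

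Of the 6 GTPases, Mx1 and Gbp2 rose. Mx proteins are dynamin-like GTPases that block the replication of viruses, and guanylate-binding proteins and immunity-related GTPases attack the vacuoles of intracellular microbes. Mx1 had a log2 signal of 7.85, 8.16 and 8.28 in the SOD1 G93A arrays and 6.42, 6.90 and 6.94 in the WT arrays. The lowest SOD1 G93A array was well above the highest WT array, and array 1 was the lowest in both groups. Mx1 rose by 1.34 (SE 0.17, adjusted p = 0.00306) on the log2 scale, or 2.54-fold, and it passed without any 1 array. Many laboratory strains of mice carry an Mx1 gene that makes no working protein, and the signal is of RNA. Gbp2 had 8.88, 8.98 and 9.003 in the SOD1 G93A arrays and 8.33, 8.31 and 8.66 in the WT arrays. The SOD1 G93A arrays were almost equal, and WT array 3 was above the other WT arrays. Gbp2 rose by 0.52 (SE 0.12, adjusted p = 0.0366) on the log2 scale, and it did not pass without SOD1 G93A array 1, 2 or 3 (adjusted p = 0.051, 0.116 and 0.135, respectively) or WT array 1 or 2 (adjusted p = 0.0741 and 0.119, respectively). A second, dimmer probe set of Gbp2 had a log2 fold change of 0.92 and did not pass with p adjusted over all probe sets.

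The other 4 GTPases did not pass, although their groups did not overlap. Mx2 had a log2 signal of 7.68, 7.73 and 8.02 in the SOD1 G93A arrays and 7.46, 7.33 and 7.43 in the WT arrays. All SOD1 G93A arrays were above the WT arrays by a small margin. For Mx2 the log2 fold change was 0.40 (SE 0.12, adjusted p = 0.0809). Irgm1 and Igtp, immunity-related GTPases induced above all by interferon-gamma, had log2 fold changes of 0.29 (SE 0.12, adjusted p = 0.178) and 0.22 (SE 0.10, adjusted p = 0.255). Gbp3 went the opposite way, with -0.24 (SE 0.10, adjusted p = 0.195) and all SOD1 G93A arrays below the WT arrays. On chromosome 3, 1 protein-coding gene lies between Gbp3 and Gbp2.

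Of the enzymes that act on nucleotides and nucleic acids 1 of 4 rose. Rsad2, or viperin, makes a chain-terminating nucleotide that stops viral polymerases. It had a log2 signal of 10.37, 11.03 and 10.79 in the SOD1 G93A arrays and 9.63, 9.95 and 10.24 in the WT arrays. SOD1 G93A array 1 was the lowest of its group and lay close above WT array 3. Rsad2 rose by 0.79 (SE 0.20, adjusted p = 0.0457) on the log2 scale, and it did not pass without SOD1 G93A array 2 or 3 (adjusted p = 0.151 and 0.157, respectively) or WT array 1, 2 or 3 (adjusted p = 0.0839, 0.114 and 0.0554, respectively). Cmpk2, a mitochondrial nucleotide kinase that supplies viperin, is the neighbour of Rsad2 on chromosome 12 and had a log2 fold change of -0.26 (SE 0.34, adjusted p = 0.714). Isg20, an exonuclease for RNA, had 7.73, 7.70 and 7.77 in the SOD1 G93A arrays and 7.02, 7.39 and 7.74 in the WT arrays. The SOD1 G93A arrays were level, and WT array 3 reached them while WT array 1 was far below. For Isg20 the log2 fold change was 0.35 (SE 0.17, adjusted p = 0.266). Samhd1, which degrades deoxynucleotides and so starves reverse transcription, had -0.24 (SE 0.14, adjusted p = 0.377).

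Of the remaining 5 genes Xaf1, Tor3a and Rtp4 rose. Xaf1 promotes cell death, Tor3a is an ATPase of the endoplasmic reticulum, and Rtp4 is a chaperone of receptors that also binds viral RNA. Xaf1 had a log2 signal of 10.22, 10.03 and 9.87 in the SOD1 G93A arrays and 9.66, 9.32 and 9.38 in the WT arrays. Unlike most members, its highest value was in SOD1 G93A array 1, and the groups did not overlap. Xaf1 rose by 0.59 (SE 0.13, adjusted p = 0.0335) on the log2 scale, and it did not pass without SOD1 G93A array 1, 2 or 3 (adjusted p = 0.0719, 0.103 and 0.0627, respectively) or WT array 2 or 3 (adjusted p = 0.11 and 0.114, respectively). Tor3a had 8.24, 8.24 and 8.25 in the SOD1 G93A arrays and 7.85, 7.62 and 7.66 in the WT arrays. The SOD1 G93A arrays differed by almost nothing. Tor3a rose by 0.53 (SE 0.10, adjusted p = 0.0189) on the log2 scale, and the call was lost without SOD1 G93A array 2 or 3 (adjusted p = 0.0695 and 0.0749, respectively) or WT array 2 or 3 (adjusted p = 0.0708 and 0.075, respectively). Rtp4 had 9.81, 10.13 and 10.06 in the SOD1 G93A arrays and 9.59, 9.37 and 9.57 in the WT arrays. WT array 2 was the lowest and the groups did not overlap. Rtp4 rose by 0.49 (SE 0.12, adjusted p = 0.0474) on the log2 scale, and it did not pass without SOD1 G93A array 2 or 3 (adjusted p = 0.156 and 0.163, respectively) or WT array 1, 2 or 3 (adjusted p = 0.0544, 0.147 and 0.109, respectively).

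Ifi35, a regulator of inflammatory signalling, had a log2 signal of 11.71, 11.16 and 11.25 in the SOD1 G93A arrays and 11.47, 10.76 and 11.08 in the WT arrays. Array 1 was the highest in both groups, and the groups overlapped. For Ifi35 the log2 fold change was 0.27 (SE 0.20, adjusted p = 0.501). Sp100, a nuclear body protein that restrains DNA viruses, had -0.12 (SE 0.22, adjusted p = 0.815). Its direction turned when SOD1 G93A array 3 was left out, with 0.11, and when WT array 3 was left out, with 0.0046.

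For 19 of the 38 members the array holds further probe sets, 31 in all. With p adjusted over all 45037 probe sets, of which 2.71% rose and 1.93% fell, 3 of the 31 rose, 1 fell and 27 did not pass. With the same adjustment 12 of the 38 probe sets with the highest mean signal rose, and Ifih1, Dhx58, Oasl1, Herc6, Gbp2, Rsad2 and Rtp4 no longer passed. The further probe sets that rose belong to Rsad2 (log2 fold change 0.90), Tor3a (0.80) and Ifi35 (0.68). Ifi35 thus rose by a dimmer probe set and did not pass by its brightest. The one that fell belongs to Samhd1 (-0.71, adjusted p = 0.0207), and the 5 probe sets of this gene were all lower in SOD1 G93A.

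The sign of a further probe set was that of the brightest one in 20 cases and the opposite in 11, and 4 of the 31 were dim, with mean log2 signals under 5. When all probe sets of a gene were averaged, 14 members rose and 5 of the 19 rises were lost, namely Dhx58 with a log2 fold change of 0.18, Herc6 with 0.15, Rsad2 with 0.65, Rtp4 with 0.36 and Xaf1 with 0.30. Samhd1 fell in that form, with -0.40 and an adjusted p of 0.0395. Herc6 had 3 further probe sets, with log2 fold changes of 0.26, -0.31 and -0.02. The 2 further probe sets of Dhx58 had mean signals below 5 and values of -0.04 and -0.02.

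**Figure D4:**
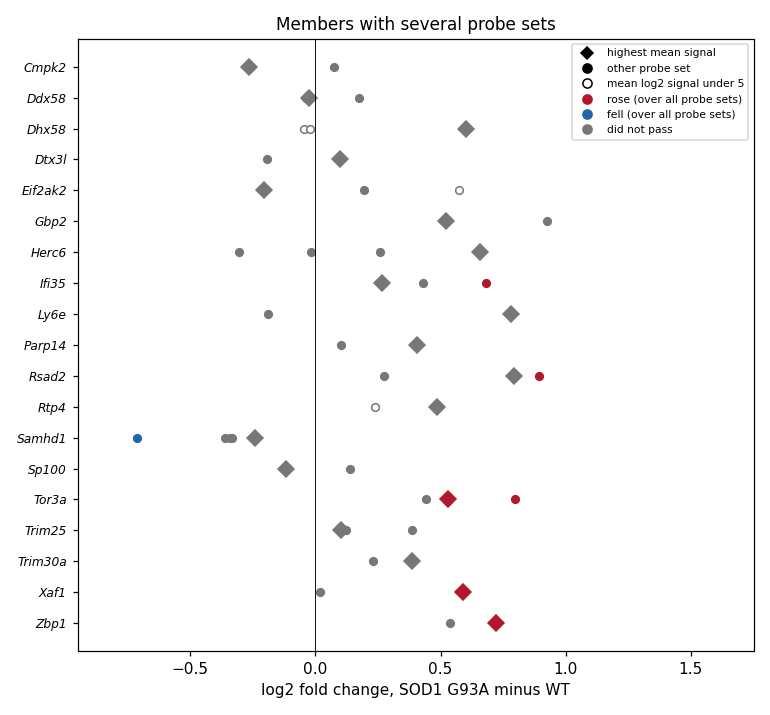
Log2 fold change, SOD1 G93A minus WT, of every probe set of the 19 members that have more than 1. Diamonds are the probe sets with the highest mean signal and circles the others, open symbols have a mean log2 signal under 5, and red and blue mark probe sets that rose or fell with p adjusted over all probe sets. Both probe sets of Zbp1 lie to the right of 0 and the 5 of Samhd1 to the left, while those of Herc6 and Ly6e lie on both sides.

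Averaged over all members, every SOD1 G93A array was above every WT array. The mean deviation of the 38 genes from their 6-array means was 0.07, 0.35 and 0.34 in SOD1 G93A arrays 1, 2 and 3 and -0.36, -0.22 and -0.18 in the WT arrays, while over all genes it was between -0.03 and 0.04. The nearest to the WT arrays was thus SOD1 G93A array 1. For the 19 genes that rose the means were 0.20, 0.58 and 0.57 in SOD1 G93A and -0.55, -0.45 and -0.36 in WT. The choice of these 19 genes by the same contrast fixes the direction of their means. SOD1 G93A array 1 was the lowest of its group in 28 of the 38 members (73.7%), beside 31.5% of all genes, and WT array 1 in 22 (57.9%), beside 31.4%. In 19 members (50%) array 1 was the lowest of both groups, beside 15.2% of all genes.

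Both arrays numbered 1 stood apart in the data as a whole, on the second principal component of all genes, which held 25.8% of the variance, whereas the first, with 51.3%, separated the genotypes. Without both arrays numbered 1 the count of rises was 22 and the median log2 fold change 0.57, with Trim30a, Mx2 and Ly6e added. The Gapdh 3' minus 5' difference was 4.63, 4.28 and 3.47 log2 units in SOD1 G93A and 5.01, 4.79 and 4.87 in WT. It was lower in every SOD1 G93A array, so the covariate fit given above cannot tell it apart from the genotype. The part of this difference in the contrasts between the genotypes was not tested. The labels name no batch.

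**Figure D5:**
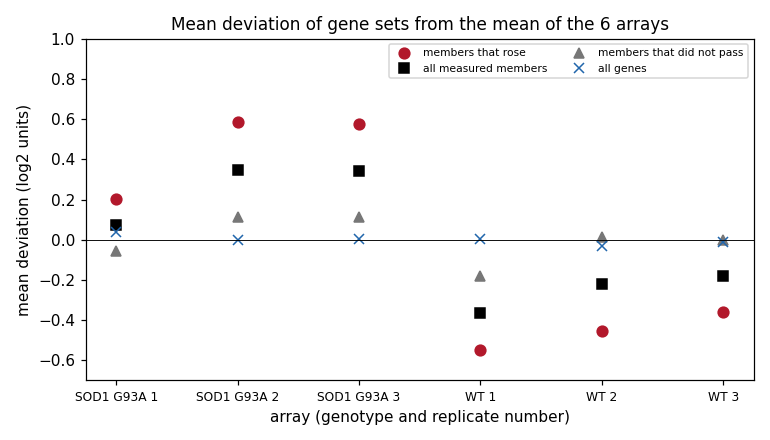
Mean deviation, in log2 units, of gene sets from their mean over the 6 arrays, for each array by genotype and replicate number. Red circles are the 19 members that rose, black squares all 38 members, grey triangles the 19 that did not pass, and blue crosses all genes, which stay within 0.04 of 0 in each array. The red and black symbols are above 0 in the SOD1 G93A arrays and below 0 in the WT arrays, and SOD1 G93A array 1 is the lowest of its group.

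Outside the members, 45 genes of interferon production and signalling were listed, and 41 had a probe set of their own. Of these 3 rose and 0 fell, 38 did not pass, beside 4.59% and 2.79% of all genes, and their median log2 fold change was 0.12 beside 0.02 for all genes. Without adjustment, 7 were higher and 6 lower at a p under 0.05, beside 13.1% and 9.21% of all genes. These shares lie near those of all genes. The 3 that rose were the ligand Ifnb1 and the transcription factors Irf7 and Irf8. Ifnb1, the gene of interferon-beta, had a log2 signal of 6.22, 6.36 and 6.44 in the SOD1 G93A arrays and 5.70, 5.25 and 5.72 in the WT arrays. All SOD1 G93A arrays were above all WT arrays. Ifnb1 rose by 0.78 (SE 0.15, adjusted p = 0.0153) on the log2 scale, and the call was lost without SOD1 G93A array 2 or 3 (adjusted p = 0.0643 and 0.073, respectively). Its signal was low, around the median of all probe sets in each array (5.93 to 5.97). The fit with a minimum mean signal of 7 left Ifnb1 out. Irf7, which switches on type I interferon genes and is itself induced by interferon, had 8.29, 8.52 and 8.63 in the SOD1 G93A arrays and 7.56, 7.87 and 7.63 in the WT arrays. WT array 2 was the highest of its group. Irf7 rose by 0.80 (SE 0.13, adjusted p = 0.00927) on the log2 scale, and it did not pass without SOD1 G93A array 3 (adjusted p = 0.0501).

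Irf8, a factor of myeloid identity and of interferon responses, had a log2 signal of 11.45, 11.59 and 11.79 in the SOD1 G93A arrays and 10.84, 11.11 and 11.07 in the WT arrays. The groups did not overlap. Irf8 rose by 0.60 (SE 0.13, adjusted p = 0.0243) on the log2 scale, and a second probe set, at 0.45, also rose over all probe sets. The call of Irf8 was lost without SOD1 G93A array 2 or 3 (adjusted p = 0.0815 and 0.1, respectively) or WT array 2 or 3 (adjusted p = 0.0532 and 0.0708, respectively). None of the 6 receptor genes, the 5 kinases and transducers, the 11 upstream sensors and adaptors or the 5 negative regulators passed, and neither did the other 5 ligands and 6 regulatory factors. Among ligands and receptors the largest value that did not pass was that of Ifngr2, a chain of the receptor for interferon-gamma, with 0.52 (SE 0.15, adjusted p = 0.0757). Sting1 and Mavs, adaptors that relay the detection of DNA and of RNA, had log2 fold changes of -0.54 (SE 0.15, adjusted p = 0.0693) and -0.48 (SE 0.13, adjusted p = 0.0566).

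The label of the cells was checked with 11 microglial markers, whose mean log2 signal was 11.30 to 11.47 in the SOD1 G93A arrays and 11.26 to 11.46 in the WT arrays. Of them Fcrls rose by 1.07 and Sall1 fell by 0.83 on the log2 scale, and 9 did not pass. Some markers of other cells differed between the genotypes as well. The mean of 7 monocyte markers was 8.85 to 9.33 in SOD1 G93A and 9.70 to 10.13 in WT. Of them 4 fell (Ccr2, Plac8, F13a1 and S100a4), while over all genes 2.79% fell. The 8 neutrophil markers had means of 11.25 to 12.11 and 11.74 to 12.71, which overlap, with the lowest value in array 1 of each group. Of these 8 markers 0 passed in limma and 3 were lower at an unadjusted p under 0.05, beside 9.21% of all genes. Single neutrophil markers had 6-array means from 7.50 to 14.32 and monocyte markers from 6.46 to 13.20, beside 8.72 to 14.37 for microglial markers. Some neutrophil and monocyte markers were thus as bright as microglial ones, and the sorted cells cannot be taken as microglia alone. The means of 7 T and NK cell markers were 5.32 to 5.47 and 5.63 to 5.92, and Klrd1 fell.

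The means of 6 astrocyte markers (6.48 to 7.17 and 7.28 to 8.09) and 5 oligodendrocyte markers (9.06 to 9.26 and 9.98 to 10.08) were lower in SOD1 G93A. Of each list 2 fell, while over all genes 2.79% fell. The lists were not uniform. Gfap (0.33) and Aldh1l1 (0.06) among astrocyte markers and Mag (0.11) among oligodendrocyte markers had positive log2 fold changes and did not pass. The means of 5 B and plasmacytoid cell markers were 6.29 to 6.40 in SOD1 G93A and 6.05 to 6.21 in WT, with Cox6a2 rising by 1.24 and a median log2 fold change of 0.0050 over the 5. The means of 6 endothelial markers were 6.55 to 6.94 and 6.23 to 6.60, which overlap, and Flt1 rose by 0.87. In 1 marker each of the T and NK cell and the B and plasmacytoid lists the signal was below 5 in all 6 arrays, while all monocyte, neutrophil, astrocyte, oligodendrocyte and endothelial markers were above it in at least 1 array. The part of these cells in the values of the interferon-stimulated genes was not tested.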

How the data were processed

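Total RNA of CD11b-sorted lumbar microglia, 3 arrays per genotype, was hybridised to whole-genome mouse Affymetrix arrays. What the authors deposited is a log2 signal for each probe set, normalised by RMA in Partek per the submitters' notes (no version given), whereas the study's methods name MAS 5.0. RMA pulls the arrays to one distribution and compresses low signals. There is no depth for arrays, so precision rests on how many there are.

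Of 45101 probe sets 64 are Affymetrix controls. The other 45037 carry 1 gene symbol in 34945 cases, several in 932 and none in 9160. For each of 18193 genes the brightest probe set by mean over the 6 arrays was taken from those with that symbol alone, and limma 3.58.1 (lmFit and eBayes) in R 4.3.3 was fitted to these with genotype as the term. Rises and falls are calls at p under 0.05 after Benjamini-Hochberg adjustment over all genes, and intervals are at 95%. The script was tested on simulated data.

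The members, the other pathway genes, the markers and the roles were chosen with earlier results of these data known. Values of every array are given for members that passed and, by role, for the member with the largest absolute log2 fold change that did not. Same-numbered arrays did not deviate together in all 3 pairs (correlations of 0.44, 0.24 and 0.04), so the numbers were not taken as pairs. SOD1 G93A arrays 1 and 2 did correlate best with the WT array of their own number. The paper states that litters were matched between the groups, so a pairing is not excluded, and a replicate block was run as an alternative. Promoters are from RefSeq (GRCm38.p6). Neighbouring genes were read from the RefSeq gene table, which held all 38 members. Annotation used pandas 2.3.3 and numpy 2.4.6, and figures matplotlib 3.10.9, in Python 3.11.15. The alternatives were the methods' t-test, eBayes with trend and robust, other choices of probe set, minimum mean log2 signals of 5 and 7, median-centred and quantile-normalised arrays, a replicate block, a Gapdh covariate, adjustment over all probe sets, fits without both arrays numbered 1 and without each array, and, added after seeing the data, a limma fit on all probe sets.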

Additional observations from a re-analysis of the deposited data

How the results depend on the processing

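Against 19 members higher, 0 lower and 3 other pathway genes higher, the methods' t-test gave 0 members and 0 pathway genes higher (20 and 6 at an unadjusted p under 0.05) and 0% of all genes, and the Gapdh covariate gave 0 and 0 (13 and 4) and 0.396% of all genes. Adjustment over all probe sets left 12 members, and the limma fit on all probe sets, an alternative chosen after seeing the data, left 15. eBayes with trend and robust left 17, quantile normalisation 16, and the mean of all probe sets 14, with 1 member lower and a median log2 fold change of 0.33 in place of 0.48. The fit without suffixed probe sets, those named a_at, s_at or x_at, called 19, of which 18 were called before, with Ifi35 gained (0.68) and Gbp2 lost (adjusted p = 0.0578). Median-centred arrays and a minimum signal of 5 called the same 19, and a minimum of 7 called 18 of the 34 members left. With the replicate number as a block, 22 members were higher, Parp14, Mx2 and Ly6e added, 1 was lower (Ifitm3, adjusted p = 0.049), and 4 pathway genes were higher. Leaving out 1 array gave 7 to 17 members, 0 lower, 0 to 4 pathway genes and medians of 0.43 to 0.51. Of the 19 rises, 7 were kept in all 6 of these fits, and of the 19 other members 17 passed in none.

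Directions turned only among members that did not pass. With the mean of all probe sets the log2 fold changes were 0.037 for Ddx58, 0.19 for Eif2ak2, -0.048 for Dtx3l and 0.011 for Sp100. Without suffixed probe sets they were -0.19 for Ly6e and 0.14 for Sp100. With the Gapdh covariate they were 0.50 for Eif2ak2, -0.038 for Oas2, -0.29 for Oas3, -0.051 for Trim25, -0.033 for Dtx3l and 0.24 for Sp100, and Ddx58 had 0.11 without both arrays numbered 1. With 1 array left out, the range was -0.16 to 0.14 for Ddx58, -0.63 to 0.028 for Cmpk2, -0.13 to 0.23 for Oas3, -0.41 to 0.13 for Eif2ak2 and -0.30 to 0.11 for Sp100. The cause was not tested.

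With 3 arrays per genotype, the fold change at the threshold depended on the spread of the gene, with Ifih1 passing at 1.39-fold and Ly6e not at 1.72-fold, so members that did not pass may still differ.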
